A study of Mus musculus with 17 samples.

Results

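Ribosome biogenesis genes encode the nucleolar proteins that transcribe, cut, modify and assemble ribosomal RNA. 41 such genes were listed for this account, and all 41 were found among the 19937 genes measured on 17 arrays. Each gene was represented by 1 probe set with a single gene symbol, chosen by its highest mean log2 value over all arrays. The list itself was drawn up with earlier results of these arrays in view and does not name the comparison behind it, so the counts below describe these genes and are not independent evidence for any direction. By role the list holds 3 genes of rRNA transcription, 3 of the box C/D and 4 of the box H/ACA small nucleolar ribonucleoproteins, 16 of small subunit assembly, 11 of large subunit assembly, 3 nucleolar phosphoproteins and 1 subunit of RNase P and RNase MRP. 1 gene of the 41, Rpp25, had a mean below the median of all gene means (5.55 on the log2 scale).

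Ribosomes are built in the nucleolus. RNA polymerase I makes 1 long precursor there, small nucleolar RNAs guide its methylation and pseudouridylation, and the small subunit processome and the pre-60S particles cut and fold it into the 2 subunits. Genes for these factors are usually transcribed together, are known targets of Myc, and have higher transcript levels in growing and dividing cells than in quiescent endothelium.

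The study asked how the Notch ligands Jag1 and Dll4 act on endothelial and haematopoietic precursors of the aorta-gonad-mesonephros (AGM) region. All 6 groups were mouse E11.5 AGM cells sorted as CD31+CD45-Ter119- from dissected embryos. Kit- and Kit+ cells (3 arrays each) were sorted directly from fresh tissue and belong to an earlier series. The other cells spent 2 h with cytokines on feeder cells of the stromal line OP9 that carried either Jag1 or Dll4, and were then sorted by Kit again into Kit-J (2 arrays, 1 more having been excluded by the authors) and Kit+J (3 arrays) from Jag1, and Kit-D and Kit+D (3 arrays each) from Dll4. A few nanograms of RNA per sample were amplified before hybridisation. Culture, cytokines and array series changed together between fresh and cultured cells and cannot be told apart, and in RNA of whole sorted populations fewer cells of a type and less RNA per cell cannot be told apart either.

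Some labels are at odds with each other. For 4 arrays, both of Kit-J and the arrays numbered 3 of Kit-D and of Kit+D, 1 line of the record names the opposite Kit population, while titles and sources give the group used here. On the log2 scale Kit itself ranged from 8.13 to 8.29 in fresh Kit- cells and from 9.44 to 9.55 in fresh Kit+ cells. The cultured Kit+J arrays read 9.02 to 9.93, the Kit-J arrays 9.08 and 8.50, the Kit+D arrays 8.51 to 8.99 and the Kit-D arrays 7.05 to 8.02, so that Kit-J and Kit+D overlapped. The endothelial receptor Kdr read 9.62 to 10.26 in Kit- and Kit-D cells and 4.63 to 6.89 in the 3 Kit+ groups, and the Kit-J arrays, at 5.11 and 6.38, fell in the range of the latter. Primordial germ cell markers were a list of 19 genes that includes Kit itself. They averaged 1.18 to 1.40 above the Kit- mean in Kit+ and 1.21 to 1.76 in Kit+J. On Kit+D arrays 2 and 3 they averaged 1.30 and 1.94. They averaged -1.43 on the first Kit+D array, 0.945 and 0.775 in Kit-J, and between -1.86 and -0.685 in Kit-D. The first Kit+D array also carried the highest mean of 18 myeloid markers, 1.60, and of 18 haematopoietic markers, 1.11.

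The promoters of these genes were searched for short motifs, since genes that move together can share them. RefSeq windows of GRCm38.p6, from 250 bases before to 50 after a transcription start, were held for 34 of the 41 genes, and Rrp12, Fbl, Nol6, Npm1, Bop1, Rrs1 and Pak1ip1 had none. The E-box CACGTG, which Myc and Max bind, was found in 8 of the 34 (23.5%), against 9.5% of 15613 genes tested that have a window. Their E-boxes, in capitals with up to 10 flanking bases, are shown because Myc targets are at issue in this gene group.
Nop2, chr6:125131813-125131838, plus strand, beginning 60 bases before the start: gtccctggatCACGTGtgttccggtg
Utp18, chr11:93885771-93885796, minus strand, beginning 20 bases before the start: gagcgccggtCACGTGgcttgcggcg
Pes1, chr11:3963967-3963992, plus strand, beginning 2 bases after the start: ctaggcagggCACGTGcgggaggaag
Tsr2, chrX:151096513-151096538, minus strand, beginning 15 bases after the start: gcctgggagcCACGTGatctaaacgg
Wdr43, chr17:71616222-71616247, plus strand, beginning 17 bases after the start: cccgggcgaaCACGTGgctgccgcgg
Tsr1, chr11:74898094-74898119, plus strand, beginning 24 bases after the start: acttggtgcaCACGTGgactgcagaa
Utp20, chr10:88826765-88826787, minus strand, beginning 37 bases after the start: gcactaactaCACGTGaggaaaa
Mybbp1a, chr11:72441357-72441376, plus strand, beginning 40 bases after the start: cttctgagccCACGTGtttg
The 8 stretches share only the capitals, and the E-boxes lie before the start in Nop2 and Utp18 and after it in the other genes. Of the 8 genes, Mybbp1a, Nop2, Pes1 and Utp20 were called higher in Kit+D than in Kit-D cells, and the motif was held by 4 of 14 called genes (28.6%) and 4 of 20 others (20.0%).

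Other motifs were counted in the same windows on both strands. The ETS motif CCGGAAG was held by 10 of the 34 genes (29.4%) against 13.6% of the genes tested, and the GC box GGGCGG by 25 (73.5%) against 52.9%. The CCAAT box was near its background (16 genes, 47.1%, against 41.7%). The NRF1 motif GCATGCGC was held by none of the 34 genes and by 4.27% of the genes tested. None of the 5 motifs contains another. A match says only that these letters are in the window.

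Across the 6 groups the mean of the 41 genes was highest in the Kit+ groups. Relative to the Kit- mean, their mean was -0.00831, -0.0981 and 0.106 on the 3 Kit- arrays and 0.416, 0.500 and 0.574 on the 3 Kit+ arrays. On the Kit+J arrays it was 0.626, 0.437 and 0.656, and on the Kit+D arrays 0.493, 0.700 and 0.695. Every array of the 3 Kit+ groups therefore lay above every array of Kit-, Kit-J and Kit-D. The mean was 0.0668, 0.0857 and 0.149 on the Kit-D arrays, and 0.131 and 0.388 for Kit-J. The Kit-D arrays sat close together, whereas the 2 Kit-J arrays lay further apart than the arrays of any other group. As a description, 769 of the 820 pairs of these genes had a correlation above 0 over the 17 arrays, which share their groups, with a median Pearson r of 0.458. Wdr75 (r = 0.930), Heatr1 (0.897) and Nol6 (0.884) followed the mean of the other genes most closely, and Nop10 (0.103) and Nol10 (0.154) least.

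**Figure D1:**
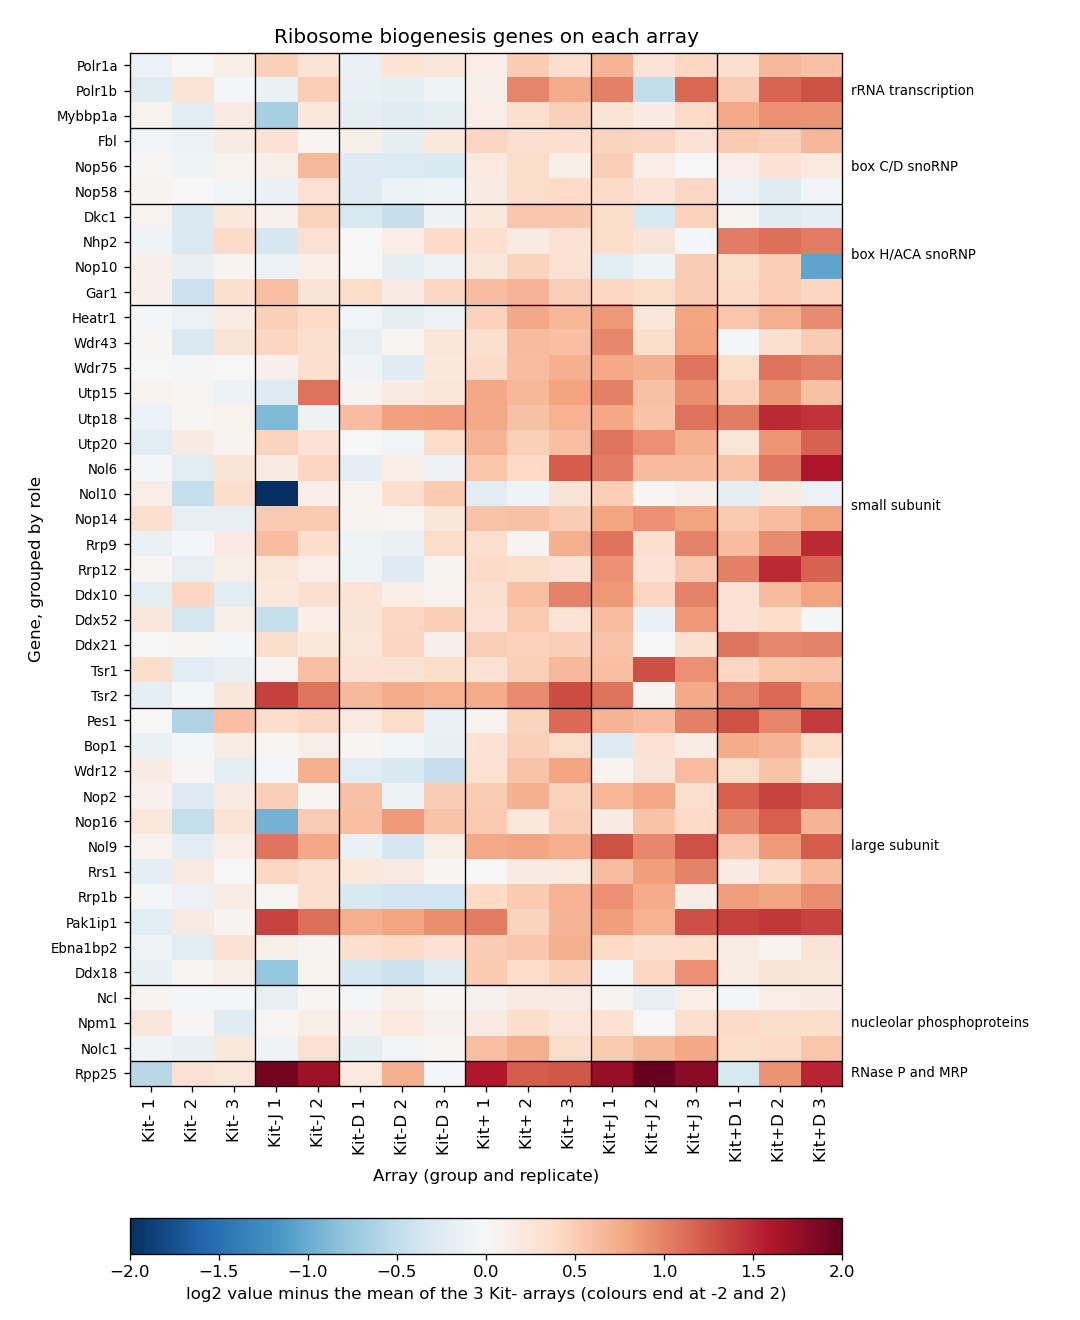
Heat map of the 41 genes (rows, grouped by role) on the 17 arrays (columns, by group), as log2 value minus the mean of the 3 Kit- arrays. Red prevails in the Kit+, Kit+J and Kit+D columns, where 34 to 41 genes of each array lay above the Kit- mean. Nol10 on Kit-J replicate 1 and Rpp25 stand out from the other rows.

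In fresh cells 5 of the 41 genes were called higher in Kit+ than in Kit- cells. The difference was above 0 for 40 of the 41 genes, with a median of 0.52 on the log2 scale, beside a median of 0.06 over all genes. limma called 0 lower at an adjusted p under 0.05, and the 5 called higher stand against 0.562% of all genes called higher. In 30 of the 41 genes all Kit+ arrays lay above all Kit- arrays, which held for 16.0% of all genes. Without the 5 genes that head the list (Nol9, Pak1ip1, Tsr1, Tsr2 and Rpp25), 2 of 36 were called and the median was 0.47.

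The 5 called genes act in the assembly of both subunits. Tsr2, which loads a ribosomal protein onto the small subunit, read 6.71, 6.86 and 7.13 in Kit- and 7.64, 7.84 and 8.21 in Kit+. The groups did not overlap, and the log2 difference was 1.0 ± 0.23 (SE, 3 arrays a group, limma adjusted p = 0.0234). Nol9, a polynucleotide kinase that trims the large subunit rRNA precursor, read 7.89, 7.61 and 7.96 in Kit- and 8.57, 8.61 and 8.55 in Kit+. The Kit+ arrays lay close together, and the difference was 0.76 ± 0.18 (limma adjusted p = 0.0319). Pak1ip1, a nucleolar WD-repeat protein of the large subunit pathway, read 6.58, 6.98 and 6.86 in Kit- against 7.83, 7.25 and 7.49 in Kit+ (0.72 ± 0.18, limma adjusted p = 0.0411). Ebna1bp2, a large subunit assembly factor, read 8.85, 8.70 and 9.22 against 9.43, 9.46 and 9.63 (0.58 ± 0.14, limma adjusted p = 0.0283). Nop14, a component of the small subunit processome, read 8.87, 8.38 and 8.37 against 9.11, 9.13 and 9.04 (0.55 ± 0.14, limma adjusted p = 0.0485). In each of the 5 genes the lowest Kit+ array was above the highest Kit- array.

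The other 36 genes were not called in the fresh cells. Over all 16 small subunit genes the median difference was 0.56, with values such as 0.75 ± 0.25 for Utp15 and 0.63 ± 0.17 for Heatr1 (limma adjusted p = 0.141 and 0.06), and the 11 large subunit genes had a median of 0.55. Medians were lower for rRNA transcription (0.33), box C/D (0.31) and box H/ACA proteins (0.38) and for the phosphoproteins Ncl, Npm1 and Nolc1 (0.25). Rpp25 had the largest difference of all, 1.35 ± 0.39, with a limma adjusted p of 0.0882, and Nol10 the smallest, -0.01 ± 0.39. The count of 5 rested on single arrays: it was 1 without Kit- replicate 1, 0 without Kit- replicate 2, 4 without Kit- replicate 3, 1 without either Kit+ replicate 1 or Kit+ replicate 2, and 0 without Kit+ replicate 3. Without any 1 of the cultured arrays it was 3 to 8. It was 0 when arrays were scaled on 7 housekeeping genes, which lowered the median of all genes to -0.07 and that of the 41 genes to 0.39, and 18 with array weights. Primordial germ cell markers moved with this comparison (2 of 19 called higher, median 1.25), as did endothelial markers (18 of 20 called lower, median -2.39). The 2 called germ cell markers were Prdm14 and Kit itself, the gene used for the sort. Of 24 cell cycle genes (median 0.26) 0 were called. At an unadjusted p under 0.05, 4 were higher and 0 lower, beside 1326 and 1364 of all 19937 genes. The part of these lists in the difference was not tested.

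**Figure D2:**
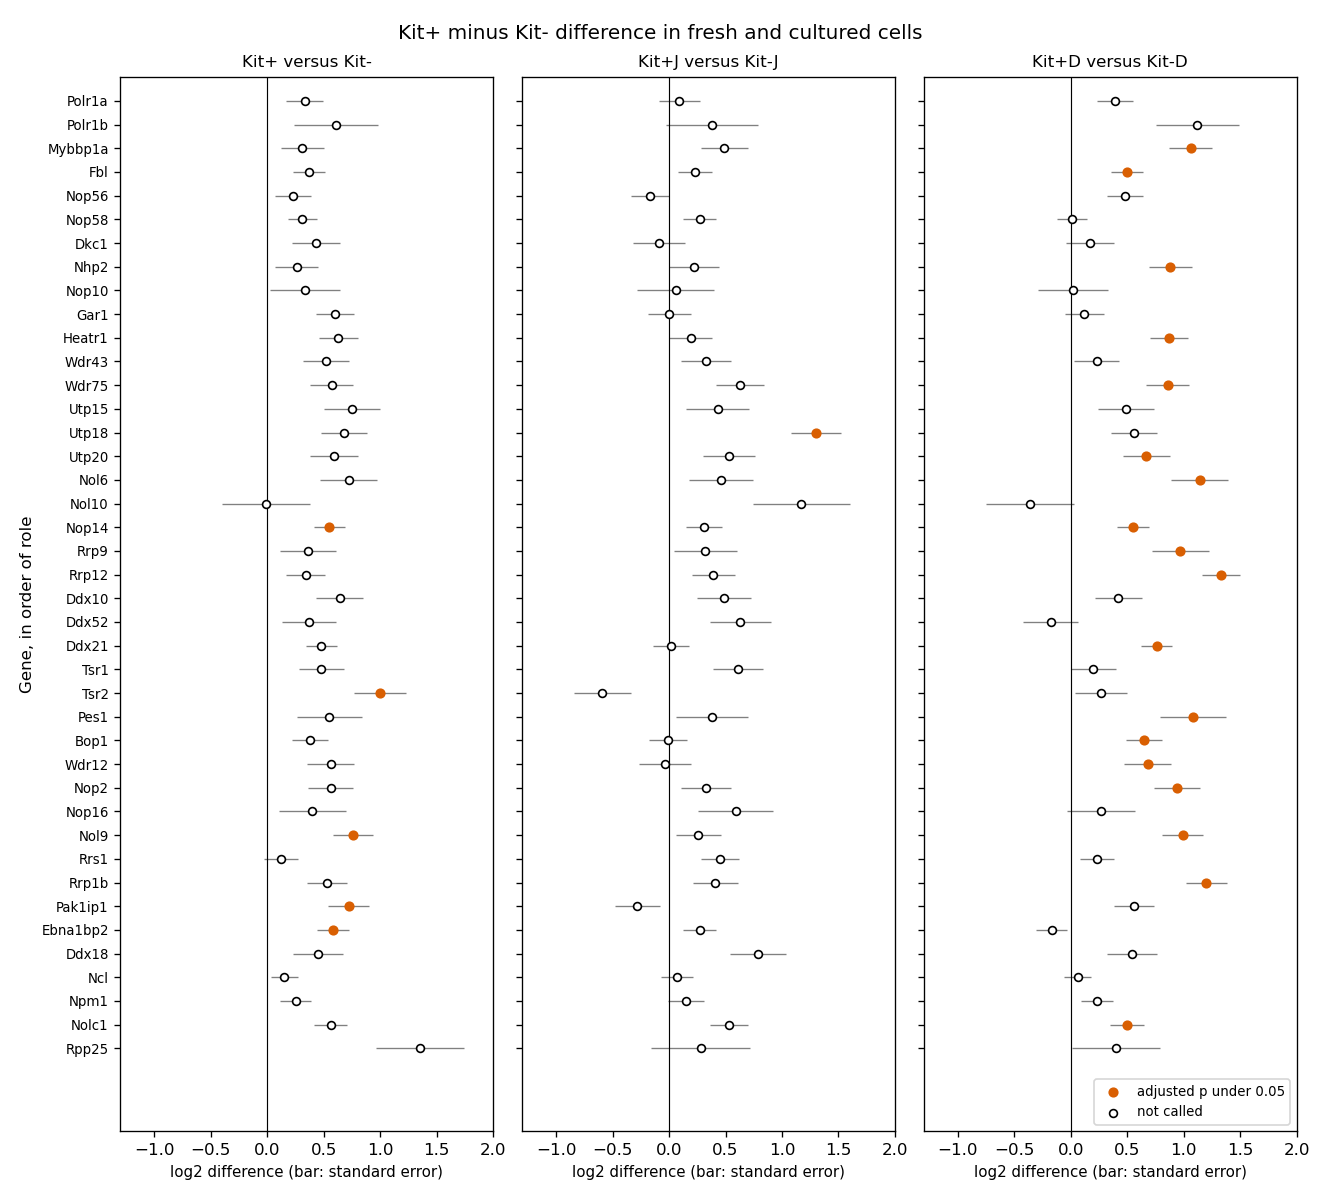
Log2 difference of each of the 41 genes (rows, in order of role) between Kit+ and Kit- cells, fresh (left), after OP9-Jag1 (middle) and after OP9-Dll4 (right), with bars for the standard error and filled points for an adjusted p under 0.05. Filled points number 5, 1 and 18, and most open points lie to the right of 0 in all 3 panels.

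After OP9-Dll4 the separation of Kit+ from Kit- cells was called for more of these genes than in any other comparison here. 18 of the 41 were higher in Kit+D than in Kit-D and 0 were lower, against 6.50% of all genes called higher, and the median difference was 0.50 beside 0.05 over all genes. 38 of the 41 differences were above 0. The arrays of the 2 groups did not overlap in 28 genes (17.7% of all genes). Without the 5 genes at the head of the list, 17 of 36 were called.

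The called genes covered every role but that of Rpp25 (0.40 ± 0.39). In rRNA transcription, Mybbp1a, a Myb-binding nucleolar protein, read 8.24, 8.18 and 8.23 on the Kit-D arrays against 9.18, 9.34 and 9.32 on the Kit+D arrays (1.06 ± 0.19, limma adjusted p = 0.00211). The RNA polymerase I subunit Polr1b had a similar difference with a wider error, 1.12 ± 0.37 (limma adjusted p = 0.0568), and Polr1a 0.39 ± 0.16 (0.121). Among the small nucleolar ribonucleoproteins, the methyltransferase Fbl (0.50 ± 0.14, limma adjusted p = 0.0262) and the pseudouridylation protein Nhp2 (0.88 ± 0.19, 0.00812) were called. Nop56, with a difference of 0.48 ± 0.16 and all Kit+D arrays above all Kit-D arrays, was not called (limma adjusted p = 0.055), but was with array weights, a variance trend or another quantile normalization. Nop58, Nop10, Gar1 and Dkc1, which sit in the same particles, had differences of 0.01, 0.02, 0.12 and 0.17 and were not called.

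8 of the 16 small subunit genes were called. Rrp12, which acts in the processome and in export of the small subunit, read 6.24, 6.08 and 6.39 on the Kit-D arrays and 7.34, 7.83 and 7.52 on those of Kit+D. Its difference of 1.33 ± 0.17 was the largest of the 41 genes and had the smallest adjusted p, 0.000189. The RNA helicase Ddx21 read 8.83, 9.02 and 8.69 against 9.66, 9.56 and 9.59 (0.76 ± 0.14, limma adjusted p = 0.00303). Heatr1, which joins rRNA transcription to processing, read 8.46, 8.32 and 8.40 against 9.07, 9.24 and 9.46 (0.87 ± 0.17, 0.00391). In these 3 genes the Kit+D arrays stood above all Kit-D arrays. Wdr75, Nol6, Nop14, Rrp9 and Utp20 were the others called, with differences of 0.55 to 1.14, and Utp20 was the single called gene whose groups overlapped. Tsr1 (0.20 ± 0.20) and Tsr2 (0.27 ± 0.23), late factors of small subunit maturation, were not called (limma adjusted p = 0.556 and 0.468).

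6 of the 11 large subunit genes were called. Rrp1b read 6.90, 6.82 and 6.82 on the Kit-D arrays, and on those of Kit+D 8.04, 7.99 and 8.13 (1.2 ± 0.18, limma adjusted p = 0.000511). Nol9 read 7.69, 7.48 and 7.93 against 8.36, 8.67 and 9.03 (0.99 ± 0.18, 0.00254). Both pairs of groups were clearly apart. The 3 proteins of the PeBoW complex, Pes1, Bop1 and Wdr12, were all called (1.08 ± 0.29, 0.65 ± 0.16 and 0.68 ± 0.21), and so was the rRNA methyltransferase Nop2 (0.94 ± 0.20). Ebna1bp2, called in the fresh cells, had a difference of -0.17 ± 0.14 here (limma adjusted p = 0.44), with every Kit+D array below every Kit-D array. Of the phosphoproteins Nolc1 was called (0.50 ± 0.15, limma adjusted p = 0.0408), while Ncl (0.06 ± 0.12) and Npm1 (0.23 ± 0.14) were not.

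The count after OP9-Dll4 was 11 to 20 without any 1 of the 17 arrays, with 11 without Kit-D replicate 1. Rrp12, Rrp1b, Mybbp1a, Nol9, Ddx21 and Heatr1 were called in each of those fits, and their highest adjusted p was 0.0198. With 3 arrays left out together (array 3 of Kit-D and arrays 1 and 3 of Kit+D, which had an opposing label line or few germ cell markers) 5 genes were called, Rrp12, Rrp1b, Nol9, Wdr75 and Utp20. That fit held a single Kit+D array, whose spread was taken from the remaining groups. The count was 4 with housekeeping scaling. With the OP9-Dll4 arrays alone and the replicate block it was 10, since same-numbered arrays were taken as paired in this culture. That fit kept 9 of the 18 calls of the main model, which leaves pairing out, and added Polr1b. The calls of Bop1, Ddx21, Fbl, Nolc1, Nop14, Nop2, Utp20, Wdr12 and Wdr75 were lost. Germ cell markers moved with the comparison (9 of 19 called higher, median 2.04), as did cell cycle genes (16 of 24, median 0.71) and endothelial markers (20 of 20 lower, median -1.90). Kit, the gene used for the sort, was among the 9 germ cell calls. The part of these lists in the difference was not tested. The first Kit+D array had germ cell markers at -1.43 and the highest myeloid and haematopoietic means, 1.60 and 1.11. On it 31 of the 41 genes lay above every Kit-D array, against 38.4% of all genes. The numbers were 36 and 35 on the other 2 arrays of Kit+D (43.8% and 37.6% of all genes). Which cells the level of the first array reflects was not tested.

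**Figure D3:**
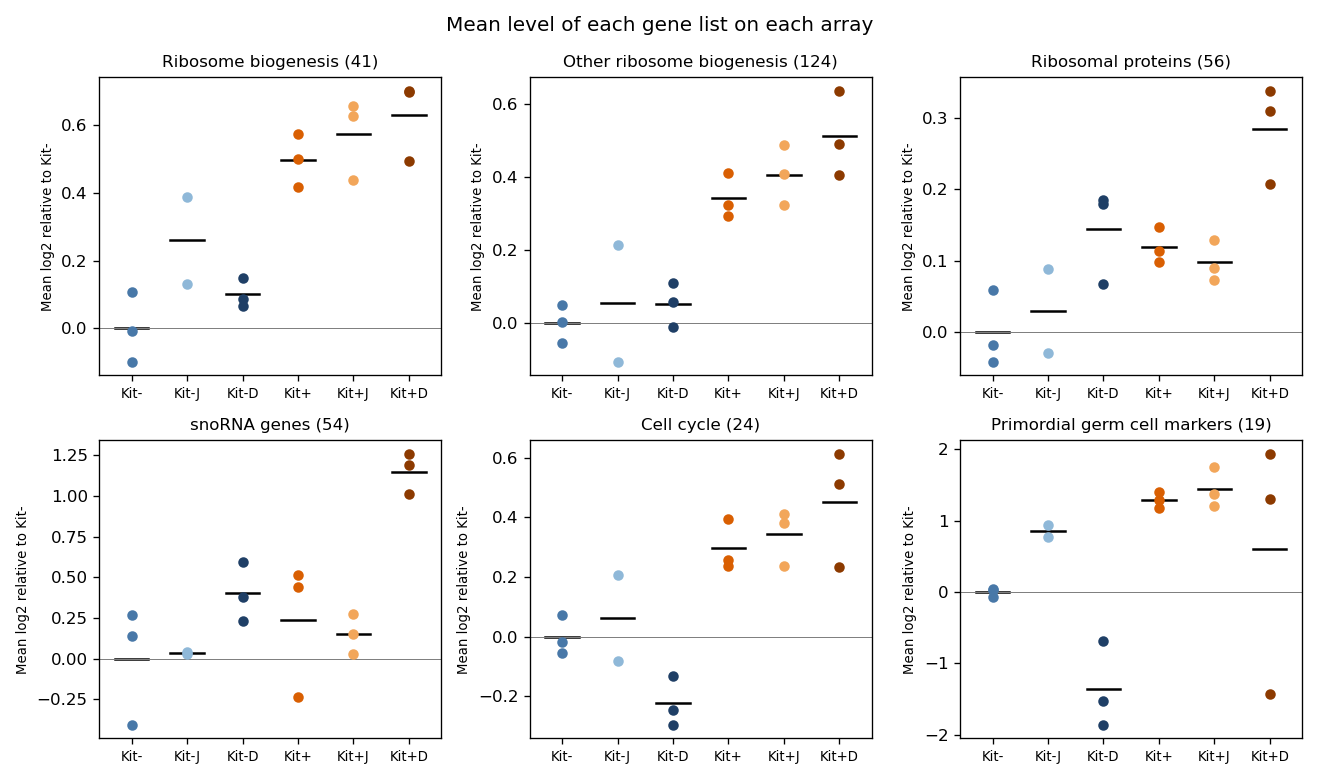
Mean log2 value of 6 gene lists relative to the Kit- mean (vertical axes, each with its own scale) on every array, by group, with points for arrays and lines for group means. The mean of the 41 genes is at least 0.416 on every array of the 3 Kit+ groups and at most 0.388 on the others. Kit+D replicate 1 reads -1.43 in germ cell markers and 0.493 in the 41 genes.

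After OP9-Jag1 the difference between Kit+J and Kit-J pointed the same way for most genes but was called for 1. Both Kit-J arrays have an opposing label line, whose part was not tested. 34 of the 41 differences were above 0 and the median was 0.32, beside -0.03 over all genes. Utp18, a small subunit processome protein, was the 1 gene called higher, against 0.0552% of all genes. It read 6.54 and 7.32 in Kit-J and 8.19, 7.99 and 8.51 in Kit+J (1.30 ± 0.22, limma adjusted p = 0.0344). In 12 genes the Kit+J arrays lay above both Kit-J arrays (10.0% of all genes). Tsr2 and Pak1ip1 had differences below 0, at -0.59 ± 0.25 and -0.28 ± 0.20, and neither was called (limma adjusted p = 0.409 and 0.676). The call of Utp18 was kept only without Kit-J replicate 2, Kit+J replicate 2, Kit+D replicate 1 or Kit+D replicate 3, and without Kit-J replicate 1 its adjusted p was 0.303. Without Kit-J replicate 2, 6 genes were called. Of the markers, 0 of 19 germ cell genes were called, with 3 higher at an unadjusted p under 0.05 (median 0.39), and 1 of 20 endothelial genes was lower (median -0.71). Of 24 cell cycle genes (median 0.32) 0 were called. At an unadjusted p under 0.05, 6 were higher and 0 lower, beside 1317 and 816 of all 19937 genes. The part of these lists was not tested.

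The 2 Kit-J arrays disagreed on single genes. Nol10, a small subunit factor, read 5.33 on replicate 1 and 7.47 on replicate 2, while the other 15 arrays ran from 6.88 to 7.88. Nop16 (7.63 and 9.08), Ddx18 (8.06 and 8.90) and Utp15 (7.79 and 9.12) were also lower on replicate 1, and the housekeeping genes averaged -0.454 there against 0.160 on replicate 2. Whether RNA quality or amplification plays a part was not tested.

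In cells titled Kit- after 2 h on OP9-Jag1 (Kit-J), 4 of these genes were called higher than in fresh Kit- cells. Both Kit-J arrays have an opposing label line, and their Kdr values of 5.11 and 6.38 fell in the range of the Kit+ groups. The part of the label in these differences was not tested. Against fresh Kit- cells, Pak1ip1 read 8.16 and 7.91 in Kit-J (1.23 ± 0.20, limma adjusted p = 0.00402), and Tsr2 read 8.27 and 7.97 (1.22 ± 0.25, 0.0194). Nol9 read 8.89 and 8.59 (0.92 ± 0.20, 0.0271), and Rpp25 read 5.99 and 5.77 against 3.53, 4.39 and 4.32 in Kit- (1.80 ± 0.44, 0.0477). In all 4 both Kit-J arrays exceeded every Kit- array. The 4 calls stand beside 0.251% of all genes called higher, and all 4 are among the 5 genes at the head of the list, so that 0 of the other 36 genes were called and 5 of them were higher and 2 lower at an unadjusted p under 0.05. The median of the 41 genes was 0.27, beside 0.09 over all genes. On Kit-J replicate 1, 18 of the 41 lay above every Kit- array, against 46.4% of all genes, and on replicate 2, 27 did (31.9%). Without Kit-J replicate 1 none of the 4 was called (limma adjusted p = 0.0792 for Pak1ip1 to 0.325 for Rpp25) and Utp15 was. Without Kit- replicate 1, 2 or 3 the counts were 2, 1 and 2, with Pak1ip1 called in each. Rpp25 kept its call only without Kit+J replicate 2, Kit+D replicate 1 or Kit+D replicate 3. Primordial germ cell markers were also higher in Kit-J (1 of 19 called, median 0.90) and endothelial markers lower (15 of 20 called, median -1.82). Of 8 erythroid markers 2 were called lower, Hba-x (-3.13 ± 0.60) and Hbb-y (-2.79 ± 0.62). The part of these lists was not tested.

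Tsr1, the remaining gene at the head of the list, works beside Tsr2 on the small subunit. It read 8.43, 7.87 and 7.92 in fresh Kit- cells, 8.36, 8.37 and 8.43 after Dll4 (Kit-D) and 8.13 and 8.67 after Jag1 (Kit-J). In the Kit+ groups it read 8.38, 8.55 and 8.72 fresh, 8.48, 8.63 and 8.64 with Dll4 (Kit+D) and 8.68, 9.37 and 8.98 with Jag1 (Kit+J). In this order of means each group overlapped the next except that Kit+J lay above all Kit+D arrays, and Tsr1 was called in no comparison.

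**Figure D4:**
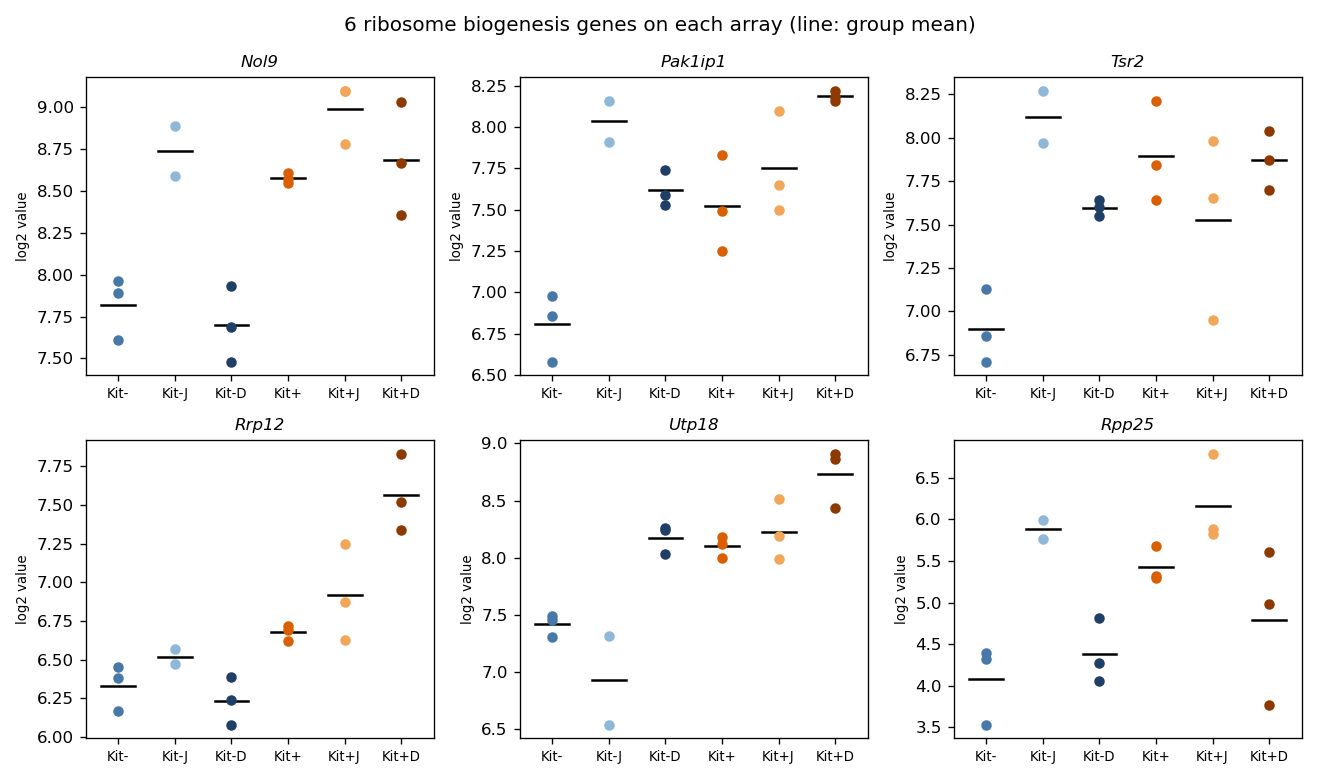
Log2 values (vertical axes) of Nol9, Pak1ip1, Tsr2, Rrp12, Utp18 and Rpp25 on each array, by group, with lines for group means. Both Kit-J arrays exceed all Kit-D arrays for Nol9 and Rpp25, Pak1ip1 has its 3 lowest arrays in fresh Kit-, and the Kit-J arrays of Utp18 read 6.54 and 7.32.

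In Kit- cells on OP9-Dll4 none of the 41 genes was called against fresh Kit- cells, where 0.171% of all genes were called. At an unadjusted p under 0.05, 5 were higher and 0 lower, against 11.2% of all genes in either direction. Pak1ip1 read 7.53, 7.59 and 7.74 in Kit-D, above all 3 fresh Kit- arrays (0.82 ± 0.18, limma adjusted p = 0.0713). Utp18 read 8.03, 8.24 and 8.26 against 7.31, 7.46 and 7.49 (0.76 ± 0.20, 0.135). Tsr2 (0.70 ± 0.23, limma adjusted p = 0.25) and Ebna1bp2 (0.33 ± 0.14, 0.362) were the next. With array weights Pak1ip1, Tsr2 and Utp18 were called. The median of the 41 genes was 0.10, and it was -0.03 after another quantile normalization. Neither is far from the median of all genes, -0.02. Of 19 germ cell markers 0 were called, but 9 were lower in Kit-D at an unadjusted p under 0.05 (median -1.09). Of 18 myeloid markers 2 were called lower (median -0.96). Of 24 cell cycle genes 0 were called and 6 were lower at an unadjusted p under 0.05 (median -0.27). Endothelial markers had 0 called (median 0.23). The part of these lists was not tested.

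Set directly against each other, Kit-J and Kit-D cells differed in 4 genes. Both Kit-J arrays and Kit-D replicate 3 have an opposing label line, whose part was not tested. Nol9 (1.04 ± 0.20, limma adjusted p = 0.00583), Rpp25 (1.5 ± 0.44, 0.0459) and the box C/D core protein Nop56 (0.66 ± 0.17, 0.0301) were higher in Kit-J, against 3.30% of all genes, and Utp18 was lower (-1.25 ± 0.22, 0.00291), against 6.07%. The Nop56 values were 10.20 and 10.74 with Jag1 against 9.83, 9.82 and 9.79 with Dll4. The Rpp25 values with Dll4 were 4.27, 4.81 and 4.06. Neither these groups nor those of Nol9 and Utp18 overlapped, and 3 and 1 of 41 genes are of the order of the 2 backgrounds. Of the 19 germ cell genes 10 were called higher with Jag1 (median 2.27), Kit among them, and of the 20 endothelial genes 17 lower (median -2.08). Of 24 cell cycle genes (median 0.33) 0 were called. At an unadjusted p under 0.05, 11 were higher and 0 lower, beside 2896 and 2583 of all 19937 genes. Of 8 erythroid genes 3 were called lower with Jag1. The part of these lists was not tested. The median of the 41 was 0.24, beside 0.11 over all genes. Without Kit-J replicate 1, Nol9, Rpp25 and Utp18 lost their calls (limma adjusted p = 0.0943, 0.282 and 0.0717), and without Kit-J replicate 2, Nop56 and Rpp25 did (0.177 and 0.0780). Nop56 and Rpp25 were also not called without any 1 of the 3 Kit-D arrays, while Nol9 and Utp18 were. Rpp25 kept its call only without Kit- replicate 1, Kit+J replicate 2, Kit+D replicate 1 or Kit+D replicate 3. With another quantile normalization 9 genes were higher and 1 lower, and with housekeeping scaling 0 and 1.

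Kit+ cells on OP9-Jag1 had no called gene. None of the 41 genes was called in Kit+J against Kit+, where 0.0201% of all genes were, and 3 were higher at an unadjusted p under 0.05 against 6.67% of all genes in either direction. The largest differences were those of Rpp25 (0.73 ± 0.39, limma adjusted p = 0.829) and Rrs1, a factor that brings the 5S particle to the large subunit (0.70 ± 0.15, 0.208). Rpp25 read 5.68, 5.29 and 5.32 in Kit+ and 5.82, 6.79 and 5.88 in Kit+J. Rrs1 read 8.0, 8.17 and 8.20 against 8.62, 8.84 and 9.0. Every Kit+J array lay above the fresh Kit+ arrays for both genes, and the median of the 41 was 0.04, beside 0.0 over all genes.

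Kit+ cells on OP9-Dll4 had 1 called gene, Rrp12, which was higher than in fresh Kit+ cells (7.34, 7.83 and 7.52 against 6.72, 6.69 and 6.62, difference 0.89 ± 0.17, limma adjusted p = 0.0245). The share called higher was 1.04% of all genes and the median of the 41 was 0.11, beside -0.02 over all genes. The call was lost without Kit+ replicate 1, 2 or 3 or Kit+D replicate 2 (limma adjusted p = 0.0764, 0.0779, 0.0839 and 0.0932). Nhp2 was called too without either Kit-J array, and Ddx21 without Kit+J replicate 2, which made 2, and with array weights 5 genes were higher and 1 was lower. Nhp2 (0.79 ± 0.19, limma adjusted p = 0.0603), Ddx21 (0.53 ± 0.14, 0.0767) and Pak1ip1 (0.66 ± 0.18, 0.0806) were next. Nop58, Dkc1 and Ebna1bp2 had differences of -0.45, -0.55 and -0.42, with all Kit+D arrays below all Kit+ arrays, and were not called (limma adjusted p = 0.104, 0.191 and 0.131). In this comparison 2 of 20 endothelial markers were higher (median 0.59), and 0 of 19 germ cell markers were called, with 2 lower at an unadjusted p under 0.05 (median -0.64). Of 8 erythroid markers 2 were called higher, Hba-x (4.41 ± 0.54) and Hbb-y (4.29 ± 0.55). The part of these lists was not tested.

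Between ligands in Kit+ cells, Ddx21 and Nhp2 were higher with Dll4, against 1.68% of all genes called lower in Kit+J. Ddx21 read 9.17, 8.59 and 8.92 with Jag1 and 9.66, 9.56 and 9.59 with Dll4 (Kit+J minus Kit+D -0.71 ± 0.14, limma adjusted p = 0.0206). Nhp2 read 9.14, 9.03 and 8.75 against 9.80, 9.88 and 9.79 (-0.85 ± 0.19, 0.0376). Both genes had narrow Kit+D values and did not overlap. Neither was called without Kit+J replicate 2, Kit+J replicate 3, Kit+D replicate 1 or Kit+D replicate 2. Nhp2 was also not called without Kit- replicate 1, any of the fresh Kit+ arrays or Kit-D replicate 2. Without Kit+D replicate 3 the count was 5, with 2 higher and 3 lower in Kit+J. It was 4 without either Kit-J array (1 higher and 3 lower) and 3 without Kit+J replicate 1 (0 and 3). The median of the 41 genes was -0.03, beside 0.03 over all genes, and 0.02 after another quantile normalization. Endothelial markers were lower in Kit+J (4 of 20 called, median -0.50), and germ cell markers had a median of 0.77 with 0 called and 2 higher at an unadjusted p under 0.05. Of 8 erythroid markers 2 were called lower in Kit+J, Hbb-y (-5.91 ± 0.55) and Hba-x (-4.55 ± 0.54). The part of these lists was not tested.

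The tests of a difference between differences found no called gene on the list. For the ligand effect in Kit- cells minus that in Kit+ cells, 0 of 41 were called (1.98% of all genes), and 15 had an unadjusted p under 0.05 (16.5%). Rrp12 (0.93 ± 0.25, limma adjusted p = 0.0754) had the smallest p, and Nol10 (-1.53) and Rrp12 the largest sizes. For the OP9-Jag1 culture effect in Kit- cells minus that in Kit+ cells, 0 of 41 were called (0.582% of all genes) and 4 had an unadjusted p under 0.05 (9.44%). Tsr2 was closest, at 1.59 ± 0.34 with a limma adjusted p of 0.0516, and Nol10 followed in size at -1.18. The arrays behind Nol10 include Kit-J replicate 1, on which it read 5.33. Without Kit-J replicate 2 the ligand test called Nol10 and Utp18 and the culture test Nol10 and Tsr2, without Kit+J replicate 1 the ligand test called Rrp12 and Ddx21, and Tsr2 was called in the culture test without Kit+J replicate 1 or Kit+D replicate 1. That 4 genes were called in Kit-J and 0 in Kit+J against fresh cells therefore does not show that the effects of OP9-Jag1 differ. Whether the Kit difference after OP9-Dll4, with 18 calls, differs from that in fresh cells, with 5, was not tested.

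Other genes of the pathway, 124 measured of a list of 130, were counted in the same way. In fresh cells 6 (4.84%) were higher in Kit+, against 0.562% of all genes, and 0 were lower, with a median of 0.35. The smallest adjusted p belonged to Pno1 of the small subunit (0.81 ± 0.19, limma adjusted p = 0.034), Aatf (0.60 ± 0.15, 0.0375) and the GTPase Gnl2 (0.53 ± 0.13, 0.0391). After OP9-Dll4 36 (29.0%) were higher in Kit+D and 1 (0.806%) lower, with a median of 0.41. The shares of all genes were 6.50% and 6.62%. The smallest adjusted p there belonged to Aatf (1.32 ± 0.15, limma adjusted p = 5.88e-05), Wdr18 (1.37 ± 0.18, 0.000208) and Senp3 (1.08 ± 0.15, 0.00031). Wdr18 and Senp3 act with the Rix1 complex on the large subunit. After OP9-Jag1 limma called 0, against 0.0903% of all genes, and the median was 0.40. At an unadjusted p under 0.05, 39 were higher in Kit+J and 0 lower, where 1317 and 816 of all 19937 genes were.

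Products and partners of the pathway differed more in their pattern. Of 56 cytoplasmic ribosomal protein genes, 9 (16.1%) were higher and 1 (1.79%) was lower in Kit+D against Kit-D, with a median of 0.09. Of all genes 6.50% were higher and 6.62% lower. In the fresh cells 0 of the 56 were called, with 3 higher at an unadjusted p under 0.05, beside 1326 of all 19937 genes. Of 54 small nucleolar RNA genes, 10 (18.5%) were higher in Kit+D than in Kit-D, against 6.50% of all genes. Above fresh Kit+ there were 5 (9.26%), against 1.04%. The 3 with the smallest adjusted p in the first comparison were Snora73b (2.36 ± 0.30), Snora73a (1.87 ± 0.30) and Snord52 (2.23 ± 0.45), and in the second Snora3 (2.60 ± 0.40) led. The mean of the 54 was 1.01, 1.26 and 1.19 above Kit- on the Kit+D arrays, and on no other array above 0.595. Many of these RNAs lie in introns of host genes, and the probe sets cannot tell the mature RNA from its host. Myc read 8.96, 9.76 and 9.55 in Kit- and 9.29, 9.95 and 9.31 in Kit+, with overlap, and 0 of 12 Myc network genes were called in either comparison of Kit+ with Kit- cells, fresh or after OP9-Dll4, where at an unadjusted p under 0.05 2 were higher in Kit+ and 1 was lower in Kit+D. Of 19 metabolic genes known to respond to Myc, 6 (31.6%) were higher in Kit+D than in Kit-D, against 6.50% of all genes. Among them was Cad (1.74 ± 0.21, limma adjusted p = 0.000124), which starts pyrimidine synthesis. Of the remaining marker lists, haematopoietic (18 genes), erythroid (8), myeloid (18) and stromal (20), the numbers called higher and lower in Kit+D against Kit-D were 1 and 1, 1 and 0, 0 and 0, and 0 and 4. In the fresh cells they were 1 and 0, 0 and 2, 0 and 1, and 0 and 4. Of all genes 6.50% were called higher and 6.62% lower in Kit+D against Kit-D. The fresh cells had 0.562% and 2.67%.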

How the data were processed

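RNA of the 17 samples was amplified and hybridised to Affymetrix Mouse Gene 1.0 ST arrays. The deposited log2 values had been background-corrected, normalised and summarised per probe set by the authors with RMA, whose version and settings are not given in the sources used here. Of 34760 probe sets, 21640 carried 1 gene symbol in the platform annotation, 1321 several and 11799 none. The probe set with the highest mean was kept for each of 19937 genes, and 21553 of the probe sets with 1 symbol were matched to RefSeq by Entrez number.

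Group means were fitted in 1 limma model (3.58.1, R 4.3.3) over all arrays, with Benjamini-Hochberg adjustment over all genes and a call at an adjusted p under 0.05. Array values ran from 1.24 to 13.58, and the number of arrays limits the precision. In simulated data of this size, 67 of 100 genes changed by 1 log2 unit and 97 of 100 changed by 2 were called in Kit+D against Kit-D, and 58 and 90 in Kit+ against Kit-. No other genes were changed, and each gene had the same spread on all arrays. In the data 2615 genes were called in Kit+D against Kit-D, and array weights ran from 0.352 to 1.83. The simulated rates may therefore not carry over.

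The genes, the other gene and marker lists (other ribosome biogenesis, ribosomal protein, small nucleolar RNA, Myc network, Myc-responsive, cell cycle, housekeeping, endothelial, germ cell, haematopoietic, erythroid, myeloid and stromal) and the tests were chosen with earlier results of these data known. Values per array are given for up to 6 called genes in each direction with the smallest adjusted p, for the 2 largest differences where none was called, and for the 5 genes that head the list. Samples were grouped by title and source. The titles call arrays of a group biological replicates, and the methods name repeated sorts for the cultured cells. Replicate numbers were checked for pairing by the correlation of deviations from group means. Between same-numbered arrays of Kit-D and Kit+D r was 0.462, 0.179 and 0.289, and these were taken as paired. It was -0.114 and -0.263 between Kit-J and Kit+J, and 0.00644, 0.0323 and 0.065 for the fresh cells, which were not. The random replicate block over all conditions had a correlation of -0.0644, and the main model holds no pairing. Motif counts used Python 3.11.15.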

Additional observations from a re-analysis of the deposited data

Results flagged for a closer look

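2 gene lists beyond the 41 genes held genes for which the ligand effect (Jag1 minus Dll4) differed between Kit- and Kit+ cells by the interaction term of the limma model. This test called 1.98% of all genes. Among 124 other ribosome biogenesis genes there were 7 (5.65%). 6 of them, Tbl3, Noc4l, Wdr18, Ddx49, Wdr74 and Exosc5, had a positive effect in Kit- cells and a negative one in Kit+ cells, such as 0.86 and -0.33 for Wdr74 (difference 1.19 ± 0.27, limma adjusted p = 0.0372). Rpf1 had the opposite signs, -0.50 and 0.69 (-1.19 ± 0.28, limma adjusted p = 0.0422). Noc4l read 8.27 and 7.23 on the Kit-J arrays, against 6.88, 7.02 and 7.08 on those of Kit-D. Among 54 small nucleolar RNA genes there were 3 (5.56%). Snora73b differed by 2.41 ± 0.45 (limma adjusted p = 0.018), Snord52 by 3.38 ± 0.67 (0.0228) and Snord42b by 3.59 ± 0.80 (0.0361), and Snord42b read 7.75 and 5.32 on the Kit-J arrays. Both Kit-J arrays have an opposing label line, and its part in these differences was not tested.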

How the results depend on the processing

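Counts of the 41 genes called are given here by setting. Leaving out 1 array gave 1 to 5 in Kit-J against Kit-, 0 to 8 for the fresh Kit+ and Kit- cells, 0 to 2 in Kit+D against Kit+, 2 to 5 in Kit-J against Kit-D, 0 to 5 in Kit+J against Kit+D, 0 to 6 in Kit+J against Kit-J, 11 to 20 in Kit+D against Kit-D and 0 to 2 in each difference of differences. In the order Kit+ against Kit-, Kit+D against Kit+, Kit+J against Kit+D and Kit+D against Kit-D, a difference of at least 1 left 0, 0, 0 and 5, the groups compared alone gave 9, 0, 0 and 10, and housekeeping scaling gave 0, 0, 0 and 4. Housekeeping scaling also gave 2 in Kit-J against Kit-, 1 in Kit-J against Kit-D and 0 in Kit+J against Kit-J. Kit+J against Kit-J fell to 0 with the groups alone, a variance trend with robust prior, or array weights, and the variance trend gave 3 in Kit+ against Kit-. Array weights gave 18 in Kit+ against Kit-, 3 in Kit-D against Kit-, 6 in Kit+D against Kit+, 2 in Kit-J against Kit-D and 0 in Kit+J against Kit+D. Another quantile normalization gave 2 in Kit+D against Kit+, 10 in Kit-J against Kit-D, 2 for the ligand difference and 1 for the culture difference, which was also 1 without dim genes. Without the 5 genes at its head the list gave 2, 0 and 2 in Kit+ and Kit-J against Kit- and Kit-J against Kit-D. Without array 3 of Kit-D and arrays 1 and 3 of Kit+D, counts were 0 in Kit+J against Kit+D and 5 in Kit+D against Kit-D. The cause was not tested.

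With a fixed or random replicate block the count was 3 in Kit+ against Kit- and 16 in Kit+D against Kit-D, and with a fixed replicate block it was 1 in Kit+J against Kit+D and 0 in Kit+J against Kit-J. With the OP9-Dll4 arrays alone and the replicate block it was 10 in Kit+D against Kit-D. Of the named values under all alternatives, 685 kept their side of the threshold, 175 lost it, 11 gained it and none reversed.

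Housekeeping scaling shifted the median of all genes by -0.13 in Kit+ against Kit-, 0.14 in Kit-J against Kit-, 0.11 in Kit-J against Kit-D, 0.20 in Kit+D against Kit+, 0.11 for Kit+J against Kit+, -0.16 in Kit+J against Kit-J and 0.21 for the ligand difference. It takes 1 constant per array from every gene, so the median of the 41 genes minus that of all genes, 0.46 in Kit+ against Kit- and 0.45 in Kit+D against Kit-D, cannot move with it. It turned the split of all called genes from 112 higher and 532 lower to 17 and 491 in Kit+ against Kit-, and from 1296 and 1319 to 441 and 678 in Kit+D against Kit-D. The number of arrays, with 2 in Kit-J, limits every comparison.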
